A study of Carica papaya with 12 samples.

Results

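The enzymes that meet at pyruvate and phosphoenolpyruvate were followed through the flesh of ripe and unripe fruit from the papaya (Carica papaya) varieties ‘1B’ and ‘RB1’. They were 4 genes, pyruvate, phosphate dikinase (PPDK, TRINITY_DN15218_c0_g1), phosphoenolpyruvate carboxykinase of the ATP type (PEPCK, TRINITY_DN6957_c0_g1), plastidial pyruvate kinase 2 (PKp2, TRINITY_DN1288_c0_g1) and the E2 component of the mitochondrial pyruvate dehydrogenase complex (PDH-E2, TRINITY_DN17_c0_g1). These 4 of the 75259 genes of the de novo assembly held 88 of its 180368 isoforms, namely 9 of PPDK, 43 of PEPCK, 20 of PKp2 and 16 of PDH-E2. All isoforms that Trinity had placed under a gene were taken. The genes were selected on their difference between ripe ‘1B’ and ripe ‘RB1’ fruit, and 7 of their isoforms stand in a list of 118 sugar and volatile transcripts that was itself drawn up on that difference. Values of ripe ‘1B’ against ripe ‘RB1’ fruit are therefore given as a description, with no test.

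Phosphoenolpyruvate (PEP) is the last energy-rich intermediate of glycolysis. Pyruvate kinase turns it into pyruvate and yields ATP, and the plastid form of that enzyme, built in Arabidopsis from alpha and beta subunits, supplies pyruvate for fatty acid synthesis. PPDK runs the other way and turns pyruvate back into PEP at the cost of ATP. PEPCK makes PEP from oxaloacetate and so opens the route by which organic acids can return to sugar in fruit. PDH-E2 is the dihydrolipoyl acetyltransferase core of the complex that turns pyruvate into acetyl-CoA and commits the carbon to the mitochondrion.

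The groups were ‘1B’ ripe, ‘RB1’ ripe, ‘1B’ unripe and ‘RB1’ unripe, with 3 libraries of separate fruits each. ‘1B’ has yellow flesh and is labelled as bitter and musty, and ‘RB1’ has red flesh and is labelled as sweet and floral. Unripe fruits were mature green, ripe fruits were harvested when partly coloured, and all of them had the fungicide Sportak and a cooled journey before sampling, so each group stands for 1 harvest of 1 commercial variety. Flesh was taken from the label, since no marker of the tissue is named in the tables. Libraries held 10949060 to 60099964 counts. Levels are in CPM (a library's counts scaled to a common total, here with TMM factors over all 12 libraries). Fold changes (log2, with their standard error, SE) are from edgeR fits scaled within the libraries compared, and a gene passed when its adjusted p was under 0.05 and its absolute log2 fold change above 1.5. In bulk tissue, fewer cells of a type and less RNA per cell cannot be told apart.

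The library labelled ‘RB1’ ripe replicate 3 was left out of the fits because it stood apart from its group, so that ripe ‘RB1’ rests on replicates 1 and 2. A chi-square over its gene counts was 498 and 358 per gene against replicates 1 and 2, which gave 65.8 between them. Its own value is given beside theirs for the 4 genes and the isoforms described. Unripe ‘1B’ fruit also stood apart, in that the study's RNA quality report gave its samples the highest quality scores, and the part of RNA quality in the contrasts with this group was not tested. The variety of ‘RB1’ ripe replicate 3 was checked on transcripts found in every other ‘RB1’ library (at least 10 counts) and in no ‘1B’ library, a check chosen after the values were seen. Of 405 such transcripts, 11.9% were at 0 in replicate 3. Each of the other ‘RB1’ libraries was tested against the 4 remaining ones, without replicate 3, where replicate 3 had been tested against 5, and 5.77% to 23.4% were at 0 in them. The share was highest in the shallowest libraries, 23.4% in ripe replicate 2 (10949060 counts) and 12.1% in unripe replicate 1 (19358646 counts). Ripe replicate 1 and unripe replicates 2 and 3, nearer in depth to replicate 3 (56116016 counts), had 5.77%, 8.16% and 9.58%, all below its value. Of 634 transcripts found in every ‘1B’ library and no other ‘RB1’ library, 13.2% had counts in replicate 3, while the others, again tested against 4, had 5.09% to 12.6%.

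PPDK was far more abundant in ‘1B’ than in ‘RB1’ fruit at both stages, and in ‘1B’ it rose with ripening. Its gene sum was 94.6, 92.3 and 78.8 CPM in ‘1B’ ripe fruit and 5.88 and 6.52 CPM in ‘RB1’ ripe fruit, with 2.42 CPM in ‘RB1’ ripe replicate 3. Unripe fruit had 19.6, 21.1 and 18.7 CPM in ‘1B’ and 4.14, 3.42 and 4.15 CPM in ‘RB1’. No ‘1B’ library overlapped any ‘RB1’ library, and even unripe ‘1B’ fruit stood above ripe ‘RB1’ fruit. In unripe fruit, which shares no library with the comparison that chose the gene, the log2 fold change of ‘1B’ over ‘RB1’ was 2.31 (SE 0.10, adjusted p = 4.38e-14). Ripe over unripe ‘1B’ fruit gave 2.14 (SE 0.09, adjusted p = 4.66e-11). PPDK thus passed in both, although the ripening contrast reuses ripe libraries that chose the gene. In ‘RB1’ ripe replicates 1 and 2 lay just above the unripe libraries and replicate 3 below them, with a log2 fold change of 0.63 (SE 0.15, adjusted p = 0.00127) that was below the fold threshold, or 0.34 (adjusted p = 0.631) with replicate 3 kept. The comparison of ripe fruit that chose PPDK gave a log2 fold change of 3.85 (SE 0.19).

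**Figure D1:**
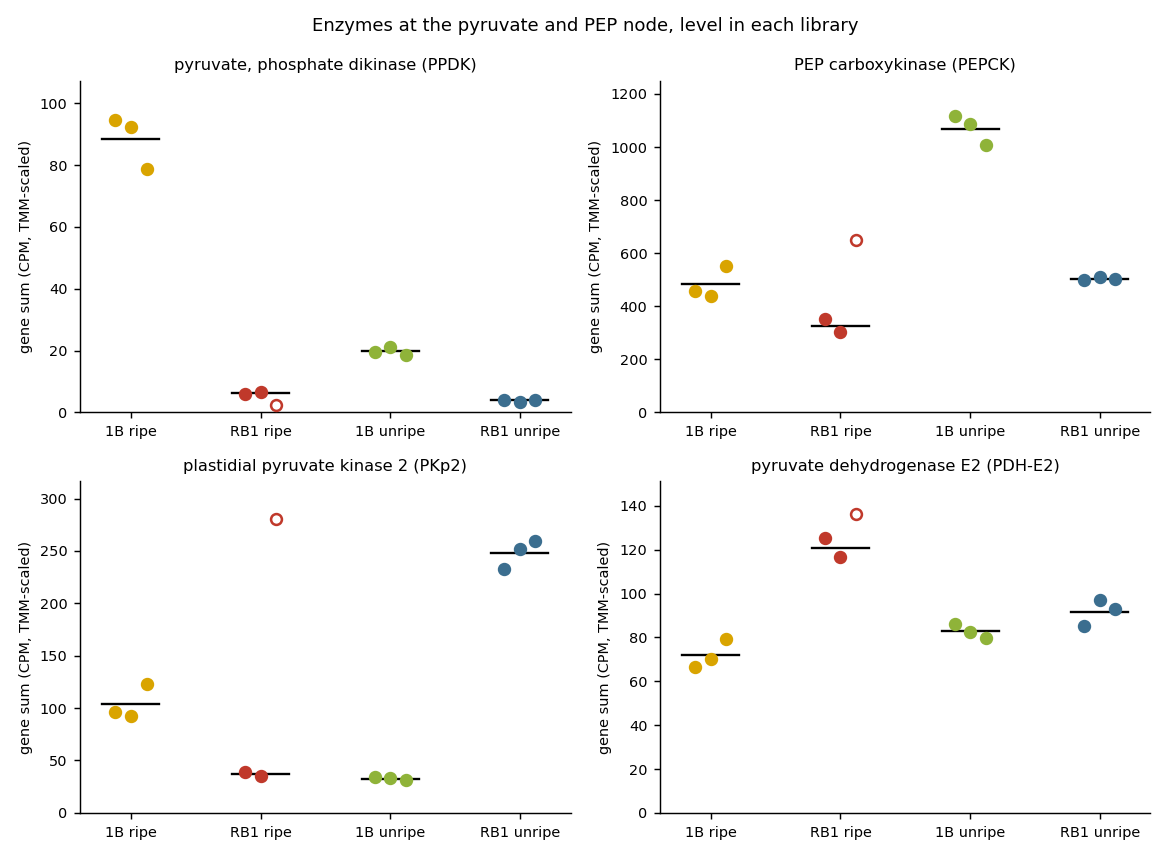
Level of each of the 4 genes in every library, as the gene sum in TMM-scaled CPM on a linear axis from 0. Points are single libraries, bars are group means, and the open point is ‘RB1’ ripe replicate 3, which is not in its group's mean. The PKp2 panel shows unripe ‘1B’ fruit lowest at 30.9 to 34.0 CPM and unripe ‘RB1’ fruit at 232.5 to 260 CPM, with the open point above it at 280 CPM.

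PKp2, the beta subunit gene that RefSeq names PKP-BETA1, moved in opposite directions with ripening in the varieties. It had 96.4, 92.1 and 123 CPM in ‘1B’ ripe fruit and 38.9 and 35.4 CPM in ‘RB1’ ripe fruit. In unripe fruit it had 34.0, 33.3 and 30.9 CPM in ‘1B’ and 232.5, 252 and 260 CPM in ‘RB1’. Unripe ‘RB1’ fruit was thus the highest group and unripe ‘1B’ fruit the lowest, and ripe fruit of both varieties lay between them. ‘1B’ was lower in unripe fruit, with a log2 fold change of -2.98 (SE 0.08, adjusted p = 7.6e-18). Ripening raised the gene in ‘1B’ by 1.64 on the log2 scale (SE 0.11, adjusted p = 3.59e-09). It passed the fold threshold there only narrowly, since the log2 fold change was 1.47 without ‘1B’ ripe replicate 3 and 1.43 when the median gene was set to no change. In ‘RB1’ the gene fell by 2.76 on the log2 scale (SE 0.11, adjusted p = 2.17e-16). Both ripening contrasts reuse the ripe libraries on which the gene was chosen, so their adjusted p are not free of that choice.

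The fall of PKp2 in ‘RB1’ rested on leaving out replicate 3. That library had 280 CPM, above all 3 unripe ‘RB1’ libraries, and with it the log2 fold change was -1.06 (adjusted p = 0.448). In ripe fruit, ‘1B’ over ‘RB1’ gave 1.49 (SE 0.18) without replicate 3 and -0.20 with it, so the direction itself turned on that 1 fruit. The difference between the varieties in their response to ripening, ‘1B’ minus ‘RB1’, was 4.45 on the log2 scale (SE 0.18) without it and 2.73 (SE 0.83) with it. The ripe comparison and this difference between responses carry no test, since they include the ripe libraries on which the gene was chosen. The unripe comparison uses none of those libraries.

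The other subunit of the plastid enzyme was measured too. Pyruvate kinase isozyme A (PK-A), the chloroplast isozyme known in castor as the alpha subunit, had 17.1, 16.6 and 20.4 CPM in ‘1B’ ripe fruit, and 5.55 and 6.91 CPM in ‘RB1’ ripe fruit. It had 7.98, 8.54 and 7.33 CPM in ‘1B’ unripe fruit and 12.2 ± 1.24 CPM (SD, n = 3) in ‘RB1’ unripe fruit. Ripe ‘1B’ fruit was the highest group and ‘RB1’ ripe replicates 1 and 2 the lowest, while replicate 3 was again high, at 23.9 CPM. Its log2 fold changes were 1.16 with ripening in ‘1B’ (adjusted p = 1.02e-07), -1.04 in ‘RB1’ (adjusted p = 8.5e-07) and -0.66 between unripe varieties (adjusted p = 8.55e-06), all 3 below the fold threshold. In ‘1B’ it passed by library size alone (2.23) and with limma on log2 TPM plus 1 (1.61) or plus 0.1 (1.89). With replicate 3 kept, the change in ‘RB1’ was 0.0066. Isozyme G (PK-G), also annotated as chloroplastic, had its highest level where PK-A had its lowest. It had 12.2 to 14.4 CPM in ‘1B’ ripe fruit, 50.1 and 46.5 CPM in ‘RB1’ ripe fruit, 22.9 to 25.3 CPM in ‘1B’ unripe fruit and 15.2 to 16.9 CPM in ‘RB1’ unripe fruit. PK-G rose with ripening in ‘RB1’ by 1.55 on the log2 scale (adjusted p = 1.56e-12), a margin so small that the call was lost under several other settings and with replicate 3, at 15.3 CPM, kept. In ‘1B’ its log2 fold change was -0.88 (adjusted p = 3.58e-07), or 0.19 when libraries were scaled by their size alone.

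**Figure D2:**
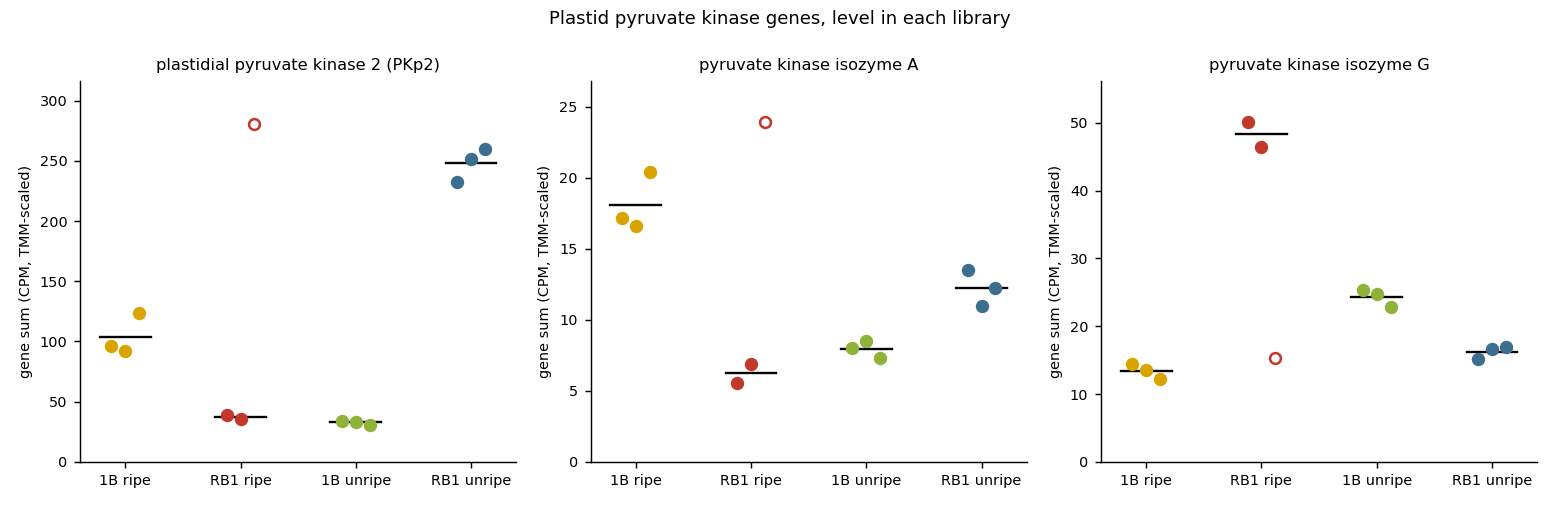
Gene sums of the 3 plastid pyruvate kinase genes in every library, in TMM-scaled CPM on linear axes from 0. Points are libraries, bars are group means, and the open point is ‘RB1’ ripe replicate 3. PKp2 and PK-A are low in ‘RB1’ ripe replicates 1 and 2 and high in the open point, whereas PK-G is high in those replicates (46.5 and 50.1 CPM) and at 15.3 CPM in the open point.

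PEPCK gave the most transcripts of the 4 genes per unit of length, as shown further on. It had 459, 439 and 554 CPM in ‘1B’ ripe fruit and 352 and 302 CPM in ‘RB1’ ripe fruit, with 651 CPM in replicate 3. Unripe fruit had 1116, 1085 and 1008 CPM in ‘1B’ and 499, 510 and 503 CPM in ‘RB1’. The unripe ‘1B’ libraries stood above all others. None of the contrasts passed the fold threshold, although each had a small adjusted p. The log2 fold change was 1.03 (SE 0.08, adjusted p = 6.02e-10) for unripe ‘1B’ over ‘RB1’, -1.17 (SE 0.10, adjusted p = 1.19e-07) for ripe over unripe ‘1B’ and -0.65 (SE 0.11, adjusted p = 2.15e-05) for ripe over unripe ‘RB1’. The value in ‘1B’ depended on the scaling and was -0.10 by library size alone. In ripe fruit ‘1B’ over ‘RB1’ gave 0.57 (SE 0.19), or 0.13 with replicate 3 kept.

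By TMM, PDH-E2 was the gene of the 4 that differed least between unripe fruits. It had 66.6, 70.0 and 79.1 CPM in ‘1B’ ripe fruit and 125 and 117 CPM in ‘RB1’ ripe fruit, and replicate 3, at 136 CPM, lay with them. Unripe fruit had 86.0, 82.6 and 79.7 CPM in ‘1B’ and 85.2, 97.1 and 92.8 CPM in ‘RB1’, and these overlapped. By library size alone they did not, at 52.4 to 57.1 CPM in ‘1B’ and 86.1 to 98.3 CPM in ‘RB1’, and nor did they in TPM. The log2 fold change was -0.20 (SE 0.07, adjusted p = 0.0171) in unripe fruit and 0.37 (SE 0.10, adjusted p = 0.00195) with ripening in ‘RB1’, both below the fold threshold, and the unripe value was -0.72 by library size alone. With ripening in ‘1B’ it was -0.23 (SE 0.08, adjusted p = 0.0283) by TMM and 0.84 by library size alone, so no direction can be given. The deposited TMM-scaled TPM, which are per length, also put ripe ‘1B’ fruit above unripe ‘1B’ fruit, at 27.5 to 32.5 against 19.0 to 19.99. In ripe fruit ‘1B’ over ‘RB1’ gave -0.75 (SE 0.16), and -0.83 with replicate 3 kept.

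Of the 4 genes, 2 passed in unripe fruit, PPDK higher and PKp2 lower in ‘1B’, where 15.1% of all 23956 genes tested passed. With ripening in ‘1B’, 2 of 4 passed, PPDK and PKp2, both higher, where 25.8% of 28998 genes passed. With ripening in ‘RB1’, 1 of 4 passed, PKp2, where 19.3% of 26265 genes passed. It was 0 of 4 with replicate 3 kept, when 296 of 24979 genes passed. The median log2 fold change of the 4 genes was 0.41, 0.71 and -0.14 in these comparisons in turn, beside -0.07, 0.22 and -0.08 over all genes. The ripening contrasts share their ripe libraries with the comparison that chose the genes, and each shares its unripe libraries with the unripe comparison, so they do not add up as separate evidence. Scaling mattered most in ‘1B’. By library size alone the median gene there was 1.28 higher on the log2 scale in ripe fruit. By TMM 4540 genes were higher and 2952 lower, and with the median gene set to no change 3576 were higher and 3768 lower.

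**Figure D3:**
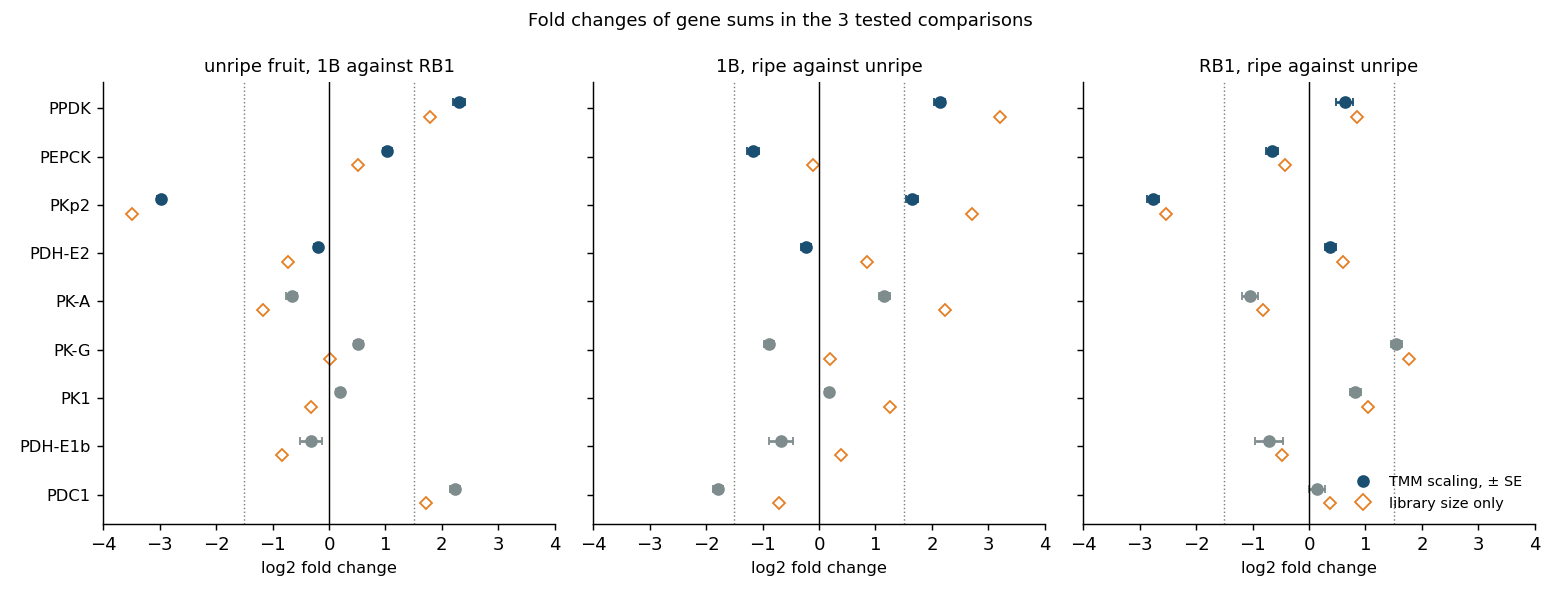
Log2 fold changes of the gene sums in the 3 tested comparisons for the 4 genes (blue) and 5 others of the pyruvate node (grey). Filled points are TMM-scaled edgeR values with their SE, open diamonds are the values by library size alone, and dotted lines mark the fold threshold of 1.5. PPDK and PKp2 lie beyond the lines on both scalings in unripe fruit and in ‘1B’, while PDH-E2 changes sign in ‘1B’, from -0.23 by TMM to 0.84 by library size.

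Per unit of length, the make-up of the node could be read within each library without any scaling between libraries, from TMM-scaled TPM. PEPCK took 62.9 to 65.7% of the summed TPM of the 4 genes in ‘1B’ ripe fruit, 66.96 and 65.0% in ‘RB1’ ripe fruit, with 59.98% in replicate 3, 88.9 to 89.6% in ‘1B’ unripe fruit and 57.2 to 59.4% in ‘RB1’ unripe fruit. PKp2 took 16.7 to 18.3%, 7.65 and 8.27%, 2.94 to 3.32% and 30.4 to 32.2% in the same order of groups. PEPCK was thus the leading transcript of the 4 in every library, and unripe ‘1B’ fruit was the group most given over to it. The TPM of PEPCK was 26.8 to 30.5 times that of PKp2 in ‘1B’ unripe fruit but 1.78 to 1.96 times in ‘RB1’ unripe fruit. PPDK took 7.32 to 10.9% in ‘1B’ ripe fruit and no more than 1.27% in any library of the other groups. The TPM ratio of PPDK to PKp2, enzymes that run between pyruvate and PEP in opposite directions, was 0.401 to 0.652 in ‘1B’ ripe fruit and 0.112 and 0.123 in ‘RB1’ ripe fruit. It was 0.377 to 0.404 in ‘1B’ unripe fruit and 0.0089 to 0.0119 in ‘RB1’ unripe fruit. ‘RB1’ ripe replicate 3, with 28.3% of the sum in PKp2 and a PPDK to PKp2 ratio of 0.0057, lay nearest to the unripe ‘RB1’ libraries and not to its own group. The summed TPM was 147 and 154 in ‘RB1’ ripe replicates 1 and 2, lower than in all other libraries, at 287 to 372.

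The listed isoforms carried little of their genes. They held 0 to 3.49% of the counts of PPDK, 3.33 to 6.17% of PEPCK, 0 to 12.8% of PKp2 and 1.26 to 12.9% of PDH-E2 over the 12 libraries. Salmon divides reads that several isoforms share, so a change of share can also be a change in that division, which was not tested. Of the 88 isoforms, 2 of PPDK, 17 of PEPCK, 6 of PKp2 and 2 of PDH-E2 had no count in any library, and 38, 42 and 40 passed the low-count filter in unripe fruit, in ‘1B’ and in ‘RB1’. In unripe fruit 16 of the 38 passed the test, 5 higher and 11 lower in ‘1B’, where 12.8% of all transcripts passed. Of the 11 lower ones, 8 were isoforms of PKp2. With ripening in ‘1B’, 17 of 42 passed, 14 higher and 3 lower, where 18.8% of all transcripts passed. In ‘RB1’, 4 of 40 passed, 1 higher and 3 lower, where 4.79% of all transcripts passed. With replicate 3 kept, 0 of 62803 transcripts passed edgeR's test in ‘RB1’, with 5199 at an unadjusted p under 0.05. Isoforms of 1 gene divide its reads, so the counts of isoforms are no separate evidence beside the gene sums. An isoform at 0 in 1 group entered the test through the other group and could be called in 1 direction only.

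PPDK changed the isoform that led it. Isoform i8 held 79.9, 75.8 and 81.3% of the PPDK counts in ‘1B’ ripe fruit but 33.6 and 36.2% in ‘RB1’ ripe fruit, and it held 85.0 to 95.7% in ‘1B’ unripe fruit and 83.5 to 95.4% in ‘RB1’ unripe fruit. Isoform i1, whose effective length is 1.01 times that of i8, held 9.42 to 12.1% in ‘1B’ ripe fruit but led in ‘RB1’ ripe fruit, with 62.9 and 63.8%. Replicate 3 lay between, with 68.4% in i8 and 29.4% in i1. These shares rest on few reads, since i1 had 184 and 54 counts and i8 98 and 30 counts in ‘RB1’ ripe replicates 1 and 2. As levels, i8 had 75.6, 70.0 and 64.0 CPM in ‘1B’ ripe fruit against 16.7 to 18.4 CPM in ‘1B’ unripe fruit (log2 fold change 2.09, adjusted p = 0.000134). In ‘RB1’ it had 1.97 and 2.33 CPM in ripe fruit, with 1.64 CPM in replicate 3, against 3.26 to 3.79 CPM in unripe fruit (log2 fold change -0.72, adjusted p = 0.239). Isoform i1 rose in ‘1B’ with a log2 fold change of 3.14 (adjusted p = 0.0448), which was lost without ‘1B’ ripe replicate 1, 2 or 3 or ‘1B’ unripe replicate 2 (adjusted p = 0.0942 to 0.144). In ‘RB1’ it had 3.70 and 4.19 CPM in ripe fruit, with 0.72 CPM in replicate 3, and 0 to 0.333 CPM in unripe fruit. This did not pass edgeR's test (adjusted p = 0.227) but did with DESeq2 (4.35, adjusted p = 0.0131) and limma on log2 TPM plus 0.1 (2.76, adjusted p = 0.0144). The listed isoform i5 had 1.85 to 2.13 CPM in ‘1B’ ripe fruit and at most 0.0514 CPM in ‘RB1’ ripe fruit.

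PKp2 kept its leading isoform, i51, at 73.2 to 83.2% of its counts in every library, and i51 followed the gene. It had 67.8 to 92.8 CPM in ‘1B’ ripe fruit, 30.8 and 27.9 CPM in ‘RB1’ ripe fruit, with 229.8 CPM in replicate 3, 22.6 to 28.2 CPM in ‘1B’ unripe fruit and 192 to 215 CPM in ‘RB1’ unripe fruit. Of 9 PKp2 isoforms tested in unripe fruit, 8 passed and all 8 were lower in ‘1B’, where 12.8% of all transcripts passed. Of 7 tested in ‘1B’, 5 passed and all 5 were higher in ripe fruit, where 18.8% of all transcripts passed. The isoforms divide the reads of 1 gene sum, so these counts are no separate evidence. An isoform at 0 in unripe ‘1B’ fruit, such as i14, entered each test through the other group and could be called in 1 direction only. The listed isoform i14, with an effective length 0.321 times that of i51, was on in ‘1B’ ripe fruit and off in ‘1B’ unripe fruit. It had 12.3, 10.8 and 12.3 CPM in the ripe libraries against 0 in all 3 unripe ones, at least 438-fold higher (floor of 3 counts over the group, counting error only, adjusted p = 0.000289). In ‘RB1’ unripe fruit it had 11.4, 7.69 and 10.4 CPM, so that unripe ‘1B’ fruit was at least 364-fold lower (adjusted p = 0.00101). ‘RB1’ ripe fruit had 1.69 and 0 CPM, and replicate 3 had more than any unripe ‘RB1’ library. Isoform i43 had 3.67 to 4.92 CPM in ‘1B’ unripe fruit against 14.2 to 24.3 CPM in ‘RB1’ unripe fruit, and it passed there (log2 fold change -2.11, adjusted p = 0.00363).

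PEPCK was led by isoform i35 in all libraries, at 67.5 to 78.4% of its counts. With ripening in ‘1B’, i35 and the listed i6 and i75 were lower by TMM (log2 fold changes -1.08, -1.01 and -1.27), but below the fold threshold. The second isoform, i59, was the only named one past it there. Isoform i59 had 37.5 to 38.5 CPM in ripe fruit against 152 to 180 CPM in unripe fruit (log2 fold change -2.04, adjusted p = 0.000106, or -1.08 and not past the fold threshold by library size alone). In ‘RB1’ it had 50.6 and 41.1 CPM in ripe fruit, 114 CPM in replicate 3 and 100 to 112 CPM in unripe fruit (log2 fold change without replicate 3 -1.23, adjusted p = 0.0156). The listed isoform i6 had 23.3, 21.7 and 27.5 CPM in ‘1B’ ripe fruit and 0 in ‘RB1’ ripe replicates 1 and 2. It had 48.2 to 55.9 CPM in ‘1B’ unripe fruit and 8.51 to 15.5 CPM in ‘RB1’ unripe fruit, and was higher in unripe ‘1B’ (log2 fold change 2.22, adjusted p = 0.00381). With ripening in ‘RB1’ it was at least 226-fold lower (adjusted p = 0.0136), but replicate 3 had 6.70 CPM and the call was lost with it kept (adjusted p = 0.924) or without unripe replicate 2 or 3 (adjusted p = 0.0692 and 0.0506). Isoform i6 entered that test through unripe fruit and could be called lower only. The other listed isoform, i75, ran the other way. It had 2.47 to 3.00 CPM in ‘1B’ ripe fruit, 11.7 and 12.7 CPM in ‘RB1’ ripe fruit with 25.5 CPM in replicate 3, 5.28 to 8.47 CPM in ‘1B’ unripe fruit and 15.3 to 16.7 CPM in ‘RB1’ unripe fruit. Within 1 gene, therefore, i6 was higher and i75 lower in ‘1B’ than in ‘RB1’ at each stage, although for i75 the unripe difference (log2 fold change -1.24, adjusted p = 0.00689) was below the fold threshold. It passed by library size alone (-1.77, adjusted p = 0.00304) and with limma on log2 TPM plus 0.1 (-1.56, adjusted p = 0.000815).

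In PDH-E2 the leading isoform went with the stage in both varieties. Isoform i21 held 53.9, 54.8 and 48.5% of the counts in ‘1B’ ripe fruit and 44.8 and 50.1% in ‘RB1’ ripe fruit, against 30.9 to 32.2% in ‘1B’ unripe fruit and 23.8 to 27.05% in ‘RB1’ unripe fruit. Isoform i8 was its complement, at 29.1 to 37.4%, 33.4 and 34.0%, 53.4 to 55.1% and 59.99 to 62.9% in that order of groups. The shares of ripe and unripe fruit did not overlap in either variety, and replicate 3, with nearly as much i21 as i8, was within the ripe ‘RB1’ range for i21 and between ripe and unripe fruit for i8, at 45.1%. The effective lengths of the pair were nearly equal, at 0.949 to 1, and the same isoform led in each group by shares of TMM-scaled TPM. As levels by TMM, none of the changes passed the fold threshold. Isoform i21 had a log2 fold change of 0.62 with ripening in ‘1B’ (adjusted p = 0.00212) and of 1.29 in ‘RB1’ (adjusted p = 0.0151). By library size alone both passed, at 1.58 (adjusted p = 0.000327) and 1.51 (adjusted p = 0.00961). Isoform i8 had one of -0.83 in ‘1B’ (adjusted p = 0.0127), or 0.12 by library size alone, and of -0.48 in ‘RB1’ (adjusted p = 0.0495).

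**Figure D4:**
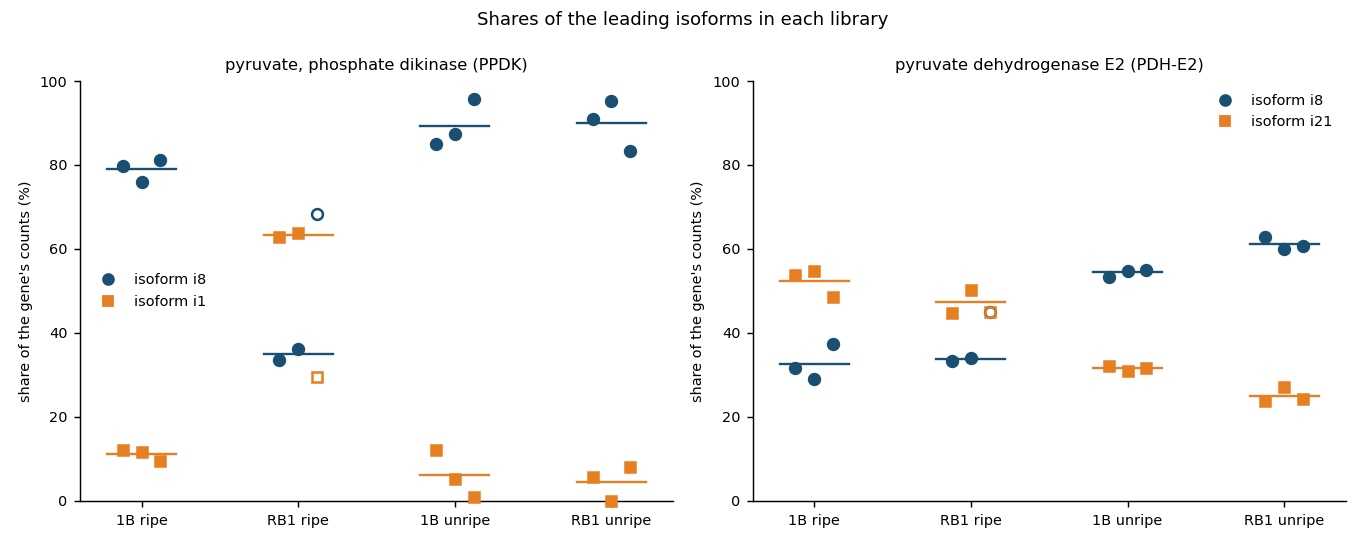
Share of the gene's counts held by the leading isoforms of PPDK (i8 and i1) and PDH-E2 (i8 and i21) in every library, in percent. Points are libraries, bars are group means, and open symbols are ‘RB1’ ripe replicate 3, which is not in the mean. For PPDK the pair crosses over in ‘RB1’ ripe fruit alone (i1 at 62.9 and 63.8%), and for PDH-E2 i21 lies above i8 in ripe fruit, apart from replicate 3, and below it in unripe fruit of both varieties.

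The 3 listed isoforms of PDH-E2 split by variety instead. Isoform i29 had 0 in all 6 ‘1B’ libraries, against 12.1 and 9.86 CPM in ‘RB1’ ripe fruit and 3.08 to 3.52 CPM in ‘RB1’ unripe fruit. It was at least 122-fold lower in unripe ‘1B’ (adjusted p = 0.00192) and rose with ripening in ‘RB1’ (log2 fold change 1.72, adjusted p = 0.0171), a call lost without ‘RB1’ ripe replicate 1 or any 1 of the unripe libraries (adjusted p = 0.054 to 0.0806) and with ripe replicate 3 kept (adjusted p = 0.962). Isoform i23 had the same pattern, at 4.02 and 3.57 CPM, and 1.48 to 1.57 CPM, in ripe and unripe ‘RB1’ fruit, and was at least 56.8-fold lower in unripe ‘1B’ (adjusted p = 0.0044). Isoform i30 was the reverse, with 2.38 to 2.79 CPM in ‘1B’ ripe fruit and 1.05 to 1.57 CPM in ‘1B’ unripe fruit and 0 in 5 ‘RB1’ libraries, at least 56.4-fold higher in unripe ‘1B’ (adjusted p = 0.00581). Each of the 3 entered the unripe test through 1 variety and could be called in 1 direction only. With limma on log2 TPM plus 1 the unripe calls of i23 and i30 were lost (log2 fold changes -0.63 and 0.30). With a replicate block those of i29, i23 and i30 were lost (adjusted p = 0.146, 0.193 and 0.198). The exception to the split by variety was again replicate 3 of ripe ‘RB1’. It had 0 of i29 and of i23 and 2.12 CPM of i30, and so carried the ‘1B’ pattern of PDH-E2, whereas its share of PEPCK isoform i75, 3.91%, was that of ‘RB1’ (0.47 to 0.76% in ‘1B’ and 3.07 to 4.21% in the other ‘RB1’ libraries).

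The rest of the pyruvate node showed no common direction. Of its 5 other listed genes, 1 passed in each comparison, where 15.1%, 25.8% and 19.3% of all genes passed in unripe fruit, ‘1B’ and ‘RB1’. Pyruvate decarboxylase 1 (PDC1), which opens fermentation to acetaldehyde and ethanol, was the call in unripe fruit and in ‘1B’. It had 9.43 to 10.05 CPM in ‘1B’ ripe fruit and 8.39 and 6.596 CPM in ‘RB1’ ripe fruit, with 4.87 CPM in replicate 3, against 36.3, 32.2 and 31.8 CPM in ‘1B’ unripe fruit and 6.30 to 7.65 CPM in ‘RB1’ unripe fruit. Unripe ‘1B’ fruit, the group with the highest RNA quality scores, was above the others, with a log2 fold change of 2.23 over unripe ‘RB1’ (adjusted p = 1.55e-14) and of -1.79 for ripe over unripe ‘1B’ (adjusted p = 9.75e-11), or -0.72 by library size alone, below the fold threshold. PK-G was the call in ‘RB1’. Cytosolic pyruvate kinase 1 (PK1) had 115 to 241 CPM over the libraries and log2 fold changes of 0.19, 0.18 and 0.82 in unripe fruit, ‘1B’ and ‘RB1’, the first reversed at -0.32 by library size alone. The E1 beta subunit of pyruvate dehydrogenase, the partner of PDH-E2 in the same complex, was low in every library, at 0.748 to 1.83 CPM, and none of its contrasts passed.

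Of the 15 other listed glycolysis genes, 5 passed in unripe fruit, 3 higher and 2 lower in ‘1B’, where 15.1% of all genes passed. With ripening in ‘1B’ 7 passed, 3 higher and 4 lower, where 25.8% of all genes did. In ‘RB1’ 4 passed with ripening, 1 higher and 3 lower, where 19.3% of all genes did. With replicate 3 kept, 1 of the 15 passed in ‘RB1’, aldehyde dehydrogenase H1, when 296 of 24979 genes passed. The list was drawn up on ripe fruit, and the ripening contrasts reuse those ripe libraries. Of the 15 genes, 1 without a call is named as a leucine–tRNA ligase. The beta subunit of pyrophosphate–fructose 6-phosphate 1-phosphotransferase (PFP), which phosphorylates a hexose phosphate with pyrophosphate in a reversible step, passed in all 3 with the directions of PKp2. Its log2 fold changes were -2.27 in unripe fruit (adjusted p = 5.44e-16), 1.79 in ‘1B’ (adjusted p = 2.9e-10) and -1.65 in ‘RB1’ (adjusted p = 4.41e-12), where it was -1.43 by library size alone and -0.22 with replicate 3 kept, which lay above all unripe ‘RB1’ libraries. The 2,3-bisphosphoglycerate-dependent phosphoglycerate mutase gene had 0.241 and 0.388 CPM in ‘RB1’ ripe fruit, 32.3 CPM in replicate 3, and 19.6 to 22.6 CPM in ‘RB1’ unripe fruit (log2 fold change without replicate 3 -6.26, adjusted p = 9.2e-18, and with it -0.88, adjusted p = 0.745). Alcohol dehydrogenase class-P, the step after PDC1 in fermentation, had 2.01 to 3.69 CPM in ‘1B’ ripe fruit against 65.0 to 75.3 CPM in ‘1B’ unripe fruit and 4.25 to 5.22 CPM in ‘RB1’ unripe fruit. It was higher in unripe ‘1B’ than in unripe ‘RB1’ by 3.85 on the log2 scale (adjusted p = 3.71e-18) and fell with ripening in ‘1B’ (log2 fold change -4.71, adjusted p = 5.01e-12), as PDC1 did.

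The remaining calls were in genes named as aldehyde dehydrogenases, sugar epimerases and an aldo-keto reductase. Aldehyde dehydrogenase B7 fell with ripening in ‘1B’ (log2 fold change -2.21) and rose in ‘RB1’ (4.55), where it had 234 and 209 CPM in ripe fruit and 3.62 CPM in replicate 3, with which the call was lost (adjusted p = 0.125). Aldehyde dehydrogenase H1 fell in both varieties (-3.85 in ‘1B’ and -1.90 in ‘RB1’), and B4 fell in ‘1B’ (-2.12). By library size alone B7 and B4 were below the fold threshold in ‘1B’, at -1.13 and -1.05, and so was B7 in unripe fruit, at 1.22. In unripe fruit B7 and F1 were higher in ‘1B’ (1.74 and 4.53) and aldose 1-epimerase was lower (-1.72). The gene sums of the putative glucose-6-phosphate 1-epimerase and the NADPH-dependent aldo-keto reductase rose with ripening in ‘1B’ (2.52 and 3.09). The first sum also holds a listed isoform named as a pentatricopeptide repeat protein, so its rise cannot be credited to the epimerase alone. Without replicate 3 and by TMM, the largest adjusted p among these calls was 9.04e-09.

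For each of the 4 genes the 3 listed genes with the most similar levels over the 12 libraries were found by Pearson's r of log2(CPM + 1) among 75 genes, as a description. The points share their libraries, their scaling and the assembly, and the listed genes had been chosen on the same ripe comparison. PPDK was most like putative beta-glucosidase 41 (r = 0.97), the large subunit of glucose-1-phosphate adenylyltransferase (r = 0.96), which makes ADP-glucose for starch, and the aldo-keto reductase (r = 0.87). PKp2 was most like sucrose synthase 2 (r = 0.98), which cleaves sucrose, PFP beta (r = 0.96) and the biotin carboxyl carrier protein 1 of acetyl-CoA carboxylase (r = 0.94), which belongs to the first step of fatty acid synthesis. PEPCK was most like a carboxyl transferase alpha subunit of acetyl-CoA carboxylase (r = 0.95), mannan endo-1,4-beta-mannosidase 7 (r = 0.92) and peroxisomal 3-ketoacyl-CoA thiolase 2 (r = 0.91). PDH-E2 had looser neighbours, namely solanesyl diphosphate synthase 3 (r = 0.87), a long chain acyl-CoA synthetase 4-like gene (r = 0.86) and cytosolic fructose-bisphosphate aldolase 6 (r = 0.66).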

How the data were processed

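Per the labels and the study's methods, the authors trimmed the reads with bbduk and Trimmomatic 0.40 and ran FastQC 0.11.9. They assembled both varieties together with Trinity, without a genome, and quantified transcripts with Salmon. The deposited expected counts are estimates that need not be whole and are not normalized. The deposited signal values are Salmon TPM that the authors scaled by TMM across the 12 libraries. Expected counts were rounded per transcript, or after all isoforms of 1 Trinity gene had been added up. The authors left out 1 ripe ‘RB1’ library after a principal component analysis without numbering it in the text, and here replicate 3, the one that stood apart in the deposited counts, was left out. Groups were compared with edgeR 4.0.16 (R 4.3.3, filterByExpr, TMM, quasi-likelihood test), fitted on all genes or transcripts with p adjusted by Benjamini and Hochberg, and the steps were tested on simulated data. SE is the log2 fold change over the root of F. Depth was 10949060 to 60099964 counts, where 3 counts are 0.274 and 0.0499 CPM, and this covers counting error only. Same-group libraries differed by more than sampling noise, so none was a mere repeat of the same library. That they came from separate fruits rests on the study's methods and was not tested.

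The members and lists were chosen with earlier results of these data known. The text names the 4 genes, their listed isoforms and those with at least 10% of their gene's counts in a group, all 5 other node genes, glycolysis genes past the threshold and the 3 most similar listed genes. Names are from the study's supplementary list, and all 4 genes matched RefSeq by gene ID. Names apply to the listed isoforms, and other isoforms share only the Trinity gene. Effective lengths are counts over TPM, relative to the leading isoform. Alternatives used DESeq2 1.42.0, limma 3.58.1 on log2 TPM plus 1 or 0.1, other filters and scalings, a replicate block, 1 fit over 11 libraries, no fold threshold, each library left out, and replicate 3 of ripe ‘RB1’ kept. Sequences were not analysed here.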

Additional observations from a re-analysis of the deposited data

Results flagged for a closer look

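The results given here moved one way with ripening in every ‘1B’ library and the opposite way in ‘RB1’ ripe replicates 1 and 2 against every unripe ‘RB1’ library. That the varieties differ in these responses was not tested, since the ripe libraries chose the genes. As log2 ratios of mean CPM, ripe over unripe, PKp2 had 1.67 in ‘1B’ and -2.74 in ‘RB1’, and its isoform i51 had 1.59 and -2.79. PK-A had 1.18 in ‘1B’ and -0.97 in ‘RB1’. PPDK isoform i8 had 1.98 in ‘1B’ and -0.70 in ‘RB1’, while the PPDK gene sum was higher in these ripe libraries of both varieties. PKp2 isoform i14, ripe minus unripe, differed by 11.8 CPM in ‘1B’ and by -8.98 CPM in ‘RB1’. These 5 kept their opposite directions by library size alone. PK-G had -0.86 in ‘1B’ and 1.57 in ‘RB1’, but by library size alone its ‘1B’ libraries overlapped. PDH-E2 had -0.20 in ‘1B’ and 0.40 in ‘RB1’, but by library size alone both varieties were higher in ripe fruit. In ‘RB1’ ripe replicate 3 the levels of PKp2, i51, i14 and PK-A lay above all unripe ‘RB1’ libraries, opposite to the other ripe replicates.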

How the results depend on the processing

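PPDK and PKp2 kept their direction in all 3 tested comparisons under every alternative run. With no fold threshold 4 of 4 genes passed in each comparison, 4 of 5 node genes in each, and 14, 14 and 13 of 15 glycolysis genes in unripe fruit, ‘1B’ and ‘RB1’, where 13668 of 23956, 19402 of 28998 and 13596 of 26265 of all genes did. In unripe fruit 1 gene passed with limma on log2(TPM + 1), PKp2. In ‘1B’ 1 gene, PPDK, passed with the median gene set to no change, and 1 to 2 passed as each library was left out. In ‘RB1’ 0 passed with replicate 3 kept, and 1 glycolysis gene. PK-G in ‘RB1’ gave 0 node calls with a 1 CPM filter, both limma fits, the block and replicate 3 kept, and 0 to 1 as libraries were left out. Isoform calls were 6 in unripe fruit and 6 in ‘1B’ with limma plus 1, when 2145 and 2729 of all transcripts were called. In ‘RB1’ they were 13 with DESeq2, 11 with limma plus 0.1 and 8 with no fold threshold, when 9851, 6997 and 5260 of all transcripts were called, 0 with replicate 3 kept, and 1 to 6 with a library left out.

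The replicate numbers are names only, and same-numbered libraries did not deviate together (correlations -0.18 to 0.059). With a replicate block member gene calls were the same, and isoform calls were 4 in unripe fruit, 5 in ‘1B’ and 0 in ‘RB1’, where unblocked fits gave 16, 17 and 4. All transcripts called were 1925, 3892 and 0 with the block, against 7808, 13292 and 3389.

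Some directions reversed. By library size, limma plus 1 and limma plus 0.1, unripe fruit gave -0.32, -0.13 and -0.14 for PK1 (0.19 by TMM) and -0.40, -0.17 and -0.19 for PDH-E2 i21 (0.13), and ‘1B’ gave 0.84, 0.59 and 0.61 for PDH-E2, which was 0.0018 with a 1 CPM filter, and 0.40, 0.18 and 0.28 for PDH-E1 beta (-0.68). By library size ‘1B’ gave 0.19 for PK-G and 0.12 for PDH-E2 i8. PK1 in ‘1B’ was -0.038 with the median gene at no change, and PKp2 i43 ran from -0.023, without ‘1B’ ripe replicate 3, to 0.86. With replicate 3 kept, ‘RB1’ gave 0.0066 for PK-A, 0.062 for PEPCK i75 and -0.037 for PDC1. PDC1 was also -0.050 with the 1 CPM filter, -0.019 and -0.027 with limma, and -0.072 to 0.30 with a library left out.

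In ripe fruit ‘1B’ over ‘RB1’, with replicate 3 kept, by library size and with the median gene at no change, was 4.16, 4.15 and 3.54 for PPDK, 0.13, 0.84 and 0.26 for PEPCK, and -0.20, 1.76 and 1.17 for PKp2. PDH-E2 gave -0.47 by library size and -1.06 with the median at no change. Limma plus 1 gave 1.10 for PEPCK, 2.18 for PKp2 and -0.33 for PDH-E2. With a library left out it was 3.82 to 4.08 for PPDK and -0.86 to -0.59 for PDH-E2. The variety by stage difference with replicate 3 kept was 1.85 for PPDK (1.55 without), -0.93 for PEPCK (-0.47) and 2.73 for PKp2 (4.45). The cause was not tested for any of these. With the fold threshold kept, genes called ran from 982 to 5697 in unripe fruit (3625 by TMM), 1850 to 13680 in ‘1B’ (7492) and 296 to 6079 in ‘RB1’ (5067), lowest with limma plus 1 or replicate 3 kept and highest without a filter or, in ‘1B’, by library size.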
